A study of Mus musculus with 6 samples.

Results

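The 10 immediate early genes described here are Fos, Fosb, Junb, Egr1, Egr2, Egr3, Egr4, Arc, Npas4 and Nr4a1. They were chosen by gene symbol and found by Ensembl identifier among 35865 annotated mouse genes, and all 10 passed the filter on low counts with 20315 genes in all. RNA-seq of polyadenylated hippocampal RNA was compared between 3 WT mice and 3 Prmt9 KO mice, all of them female, of strain B6J and 2 weeks old. The Prmt9 KO mice lack exon 5 of Prmt9, an arginine methyltransferase of the splicing factor SF3B2, after germline excision of the floxed exon with CMV-Cre, so that the deletion was present in every tissue and not in neurons alone. The WT mice were littermate controls. No stimulus, task or drug is named for either genotype in the sources used here. The comparison asks whether loss of Prmt9 went with a different level, or a different choice of transcripts, of the genes by which neurons record recent activity.

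Immediate early genes are transcribed within minutes of calcium entry or growth factor signalling, without new protein synthesis, because their regulators (SRF with its ternary complex factors, CREB and MEF2) already sit in the nucleus. Most of them encode transcription factors that start a later wave of transcription, and Arc encodes a synaptic protein instead. In hippocampus they mark neurons that were recently active, and their RNA is short-lived.

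Levels are TPM, transcript abundance scaled to library size and transcript length and summed per gene by the authors, and fold changes come from edgeR's quasi-likelihood test on gene sums of the estimated counts. Totals per mouse lay between 194098391 and 286771677 estimated counts, and the 10 genes had between 197 counts (Egr2 in WT mouse 1) and 69116 counts (Arc in WT mouse 2). Prmt9 stood at 11.78, 15.25 and 14.96 TPM in WT mice 1, 2 and 3 and at 3.93, 4.61 and 4.67 TPM in Prmt9 KO mice 1, 2 and 3, which is 31.5% of the WT mean. Both mice numbered 1 stood apart from the other 4. On a first principal component with 67.44% of the variance, WT mouse 1 lay at -109.95, Prmt9 KO mouse 1 at -30.54 and the others between 31.3 and 37.56. In WT mouse 1, 37.4% of the annotated transcripts had no count, against 22.8% to 24.8% in the other 5 mice. Deviations from the genotype mean correlated between mice of the same number in every pair, so the replicate number was also used as a block. Mice 2 and 3 correlated as well when their numbers were crossed (0.417 and 0.394). The correlations thus set the mice numbered 1 apart but do not show which of the others belong together. None of the defining markers of the neurons and glia of hippocampus was at 0 in any mouse.

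The 10 genes covered a wide range of levels. Over all 6 mice, Arc had the highest mean at 105.26 TPM, followed by Egr1 at 72.29, Nr4a1 at 58.9, Egr3 at 47.47, Junb at 44.28, Fos at 18.13, Egr4 at 16.02, Npas4 at 8.36, Fosb at 4.47 and Egr2 at 1.33 TPM. Neighbours in this order were ranked alike in all 6 mice for Nr4a1 over Egr3, Junb over Fos, Egr4 over Npas4, Npas4 over Fosb and Fosb over Egr2. Arc exceeded Egr1 in 5 of 6 mice. The pairs Egr1 and Nr4a1, Egr3 and Junb, and Fos and Egr4 kept their order in 4 of 6 mice each. The levels within these 3 pairs were not tested against each other. Of the genes tested, 8.12% had a higher mean TPM than Arc and 71.8% a higher mean TPM than Egr2.

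All 10 genes had a lower estimate in Prmt9 KO than in WT, and none passed the test after adjustment. The edgeR log2 fold changes (Prmt9 KO minus WT) ran from -0.64 for Arc to -0.16 for Egr3, with a median of -0.32 beside -0.01 over all 20315 genes, of which 53.1% had an estimate below 0. A gene was called where its adjusted p was below 0.01 and it differed more than 1.5-fold. edgeR called 0 of the 10 genes, and 0% of all genes. Prmt9 itself, the deleted gene, was not called in edgeR either. Its log2 fold change was -1.71 (adjusted p = 0.0327, and 0.0351 with the replicate number as a block). The absence of a call therefore says little about smaller differences. At an unadjusted p below 0.05, edgeR counted 1 of the 10 genes, Junb, where 1.24% of all genes passed in either direction and 0.453% as lower. With the replicate number as a block, 6 of the 10 genes had an unadjusted p below 0.05, all of them lower (Fosb, Junb, Egr1, Egr3, Arc and Nr4a1), beside 5.75% of all genes in either direction and 3.17% as lower. The lowest adjusted p among the 10 genes was then 0.79 in edgeR with Benjamini-Hochberg adjustment. A term for the mice numbered 1 gave 7 of the 10 genes, beside 9.74% of all genes and 5.33% as lower, and called 0 of the 10 and 0.00492% of all genes. DESeq2 gave 1 of the 10, beside 2.19% of all genes and 0.871% as lower, and called 0 of the 10 and 0.0197% of all genes. All 10 estimates were below 0 in these 3 fits as well, where 50.8%, 50.9% and 54.6% of all genes were (block, term and DESeq2). The size of the estimates turned on single mice. In edgeR without the block, they ran from -1.03 to -0.29 without WT mouse 1, from -0.32 to 0.02 without Prmt9 KO mouse 1 and from -0.35 to -0.01 without WT mouse 2. The 10 genes varied together from mouse to mouse, so they are not 10 independent observations. In bulk tissue, fewer cells of a type and less RNA per cell cannot be told apart.

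**Figure D1:**
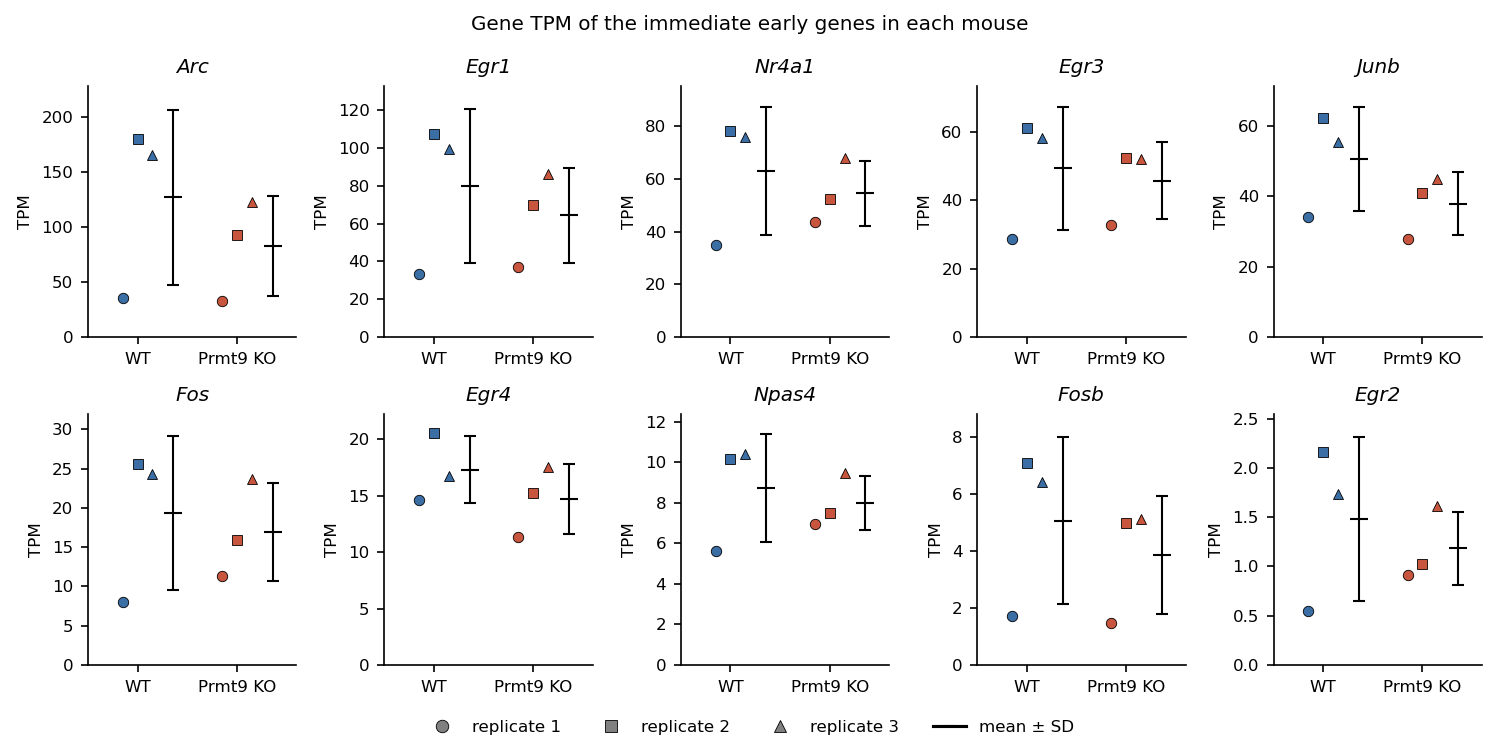
Gene TPM (y axis, linear, from 0) of each of the 10 immediate early genes in 3 WT and 3 Prmt9 KO mice, with a symbol for each replicate number and the mean ± SD beside each group. Both mice numbered 1 lie below the other 4 mice in every panel, and the genotypes overlap in every panel.

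The sequences just before the start sites are shown for the 6 genes whose RefSeq window lay at or within 30 bases of the annotated start, because the same short element recurs in them. RefSeq windows of 250 bases before the start (build GRCm38.p6) were at hand for 7 of the 10 genes, the 6 below and Npas4. The RefSeq start of Npas4 lies 345 bases downstream of the annotated start, so its window falls inside the annotated transcript. The core of the cAMP response element, TGACG, which is bound by CREB family factors, was searched on both strands. It occurred in 7 of 7 windows, against 17.8% of 32851 windows of the same length. These windows were not matched for base composition. The full palindrome TGACGTCA, which contains this core, occurred in 0 of 7, against 1.55%. The CArG box, which is bound by SRF, was read as CC, 6 bases of A or T, and GG. It occurred in the Egr2 window alone, 72 bases before the start, against 1.47% of all windows. Looser matches, and sites more than 250 bases before the start, were not searched, so SRF sites elsewhere at these genes are not covered. GCGGGGGCG, a G-rich form of the site bound by EGR zinc fingers, occurred in the Fosb and Nr4a1 windows, against 2.57%, and the form GCGTGGGCG occurred in 0 of 7, against 0.536%. TGACTCA, the site of AP-1 dimers, and AAAGGTCA, the site of NR4A monomers, occurred in 0 of 7 windows, against 4.46% and 1.34%. TATAAA occurred in the Fos window alone, against 12.4%. A match is a description of these letters in this window, and binding was not measured. Each line gives the 90 bases from 120 to 31 before the RefSeq start, 5′ to 3′ on the strand of the gene. Capitals mark TGACG, or CGTCA where the core lies on the other strand, and the CArG box of Egr2.
Fos, chr12:85473770-85473859, forward strand: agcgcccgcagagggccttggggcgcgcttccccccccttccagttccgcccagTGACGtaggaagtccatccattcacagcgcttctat
Fosb, chr7:19310076-19310165, reverse strand: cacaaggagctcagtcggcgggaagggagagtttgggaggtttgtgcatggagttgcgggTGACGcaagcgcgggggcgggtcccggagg
Junb, chr8:84978779-84978868, reverse strand: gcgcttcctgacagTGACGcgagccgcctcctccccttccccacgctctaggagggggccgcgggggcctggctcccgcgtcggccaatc
Egr2, chr10:67537749-67537838, forward strand: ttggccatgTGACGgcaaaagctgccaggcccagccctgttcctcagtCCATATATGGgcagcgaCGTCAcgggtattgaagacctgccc
Egr4, chr6:85513620-85513709, reverse strand: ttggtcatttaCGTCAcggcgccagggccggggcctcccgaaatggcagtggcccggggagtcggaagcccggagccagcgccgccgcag
Nr4a1, chr15:101266726-101266815, forward strand: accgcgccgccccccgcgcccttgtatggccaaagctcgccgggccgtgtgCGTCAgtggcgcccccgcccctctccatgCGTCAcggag

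Fos, Fosb and Junb encode subunits of AP-1, the leucine zipper dimer formed by a FOS and a JUN protein. Fos (ENSMUSG00000021250, chr12:85473890-85477273, forward strand) stood at 8.0, 25.57 and 24.33 TPM in WT mice 1, 2 and 3 and at 11.3, 15.95 and 23.63 TPM in Prmt9 KO mice 1, 2 and 3. WT mouse 1 was the lowest of the 6 mice, and the genotypes overlapped. WT averaged 19.3 ± 9.8 TPM and Prmt9 KO 16.96 ± 6.23 TPM (SD, n = 3 each, exact two-sided permutation test, p = 0.8). The smallest p of this test with 3 mice per group is 0.1. In edgeR, the log2 fold change of Fos was -0.22 with a standard error of 0.4. The main coding transcript of Fos (ENSMUST00000021674) held 78.3% ± 2.08 of the gene's TPM in WT mice, against 78.4% ± 4.15 in Prmt9 KO mice (SD, n = 3 each).

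Fosb (ENSMUSG00000003545, chr7:19302696-19310051, reverse strand), whose truncated product ΔFosB accumulates after repeated stimulation, stood at 1.72, 7.09 and 6.42 TPM in WT mice 1, 2 and 3. In Prmt9 KO mice 1, 2 and 3 it stood at 1.46, 5.0 and 5.14 TPM. Both mice numbered 1 had less than every other mouse by a wide margin, and within each number the Prmt9 KO mouse was the lower. The log2 fold change was -0.33 with a standard error of 0.55 in edgeR without the block and -0.31 with a standard error of 0.09 with it (unadjusted p = 0.0169, adjusted p = 0.79). Without Prmt9 KO mouse 1, the estimate for Fosb changed its sign, to 0.02.

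Junb (ENSMUSG00000052837, chr8:84974484-84978718, reverse strand), the JUN partner with weak activating capacity of its own, stood at 34.04, 62.3 and 55.53 TPM in WT mice 1, 2 and 3 and at 27.78, 41.05 and 44.94 TPM in Prmt9 KO mice 1, 2 and 3. The Prmt9 KO mouse was lower in each pair of the same number, and WT mouse 1 kept the groups from standing apart. Prmt9 KO reached 74.9% of the WT mean (exact two-sided permutation test, p = 0.3, n = 3 each). The edgeR log2 fold change of Junb was -0.47 with a standard error of 0.19 (unadjusted p = 0.0488, adjusted p = 1.0). The estimate for Junb was the same with the block, and its standard error was 0.07 there (unadjusted p = 0.001, adjusted p = 0.79 in edgeR).

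Egr1, Egr2, Egr3 and Egr4 encode zinc finger factors that bind GC-rich sites, and Egr1 and Egr3 are the family's abundant members in hippocampus. Egr1 (ENSMUSG00000038418, chr18:34859823-34864984, forward strand) stood at 33.21, 107.57 and 99.38 TPM in WT mice 1, 2 and 3 and at 37.18, 69.94 and 86.44 TPM in Prmt9 KO mice 1, 2 and 3. Both mice numbered 1 were far below the other 4, and in TPM the Prmt9 KO mouse was lower in pairs 2 and 3 alone. On the scale of CPM, which is closer to the edgeR fit, it was lower in pair 1 as well, at 95.3% of WT. The means were 80.05 ± 40.78 and 64.52 ± 25.07 TPM (SD, n = 3 each, exact two-sided permutation test, p = 0.6). With edgeR, Egr1 differed by -0.35 (log2) at a standard error of 0.41, and -0.3 with a standard error of 0.11 under the block (unadjusted p = 0.0424, adjusted p = 0.79).

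Egr3 (ENSMUSG00000033730, chr14:70077203-70082614, forward strand) stood at 28.51, 60.95 and 58.22 TPM in WT mice 1, 2 and 3 and at 32.63, 52.42 and 52.09 TPM in Prmt9 KO mice 1, 2 and 3. Its difference between genotypes was the smallest of the 10 and also the most even on the scale of CPM, counts scaled to library size with TMM normalization. The log2 difference of CPM between mice of the same number was -0.16, -0.17 and -0.16 for numbers 1, 2 and 3. In TPM, the first of these pairs had the opposite sign, at 0.19. The edgeR estimate for Egr3 was -0.16 (log2) at a standard error of 0.19, or of 0.05 with the block (unadjusted p = 0.02, adjusted p = 0.79).

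Egr2 (ENSMUSG00000037868, chr10:67535475-67542188, forward strand), also known as a regulator of myelinating Schwann cells, was the lowest of the 10 genes, at 0.55, 2.16 and 1.74 TPM in WT mice 1, 2 and 3 and at 0.91, 1.03 and 1.61 TPM in Prmt9 KO mice 1, 2 and 3. The pair numbered 1 and the pair numbered 2 differed in opposite directions, with Prmt9 KO at 166% of WT in the first and 47.5% in the second. The edgeR estimate for Egr2 was -0.33 (log2) at a standard error of 0.43. Egr4 (ENSMUSG00000071341, chr6:85511121-85513589, reverse strand) had the narrowest range of the 10 genes, 1.81-fold in TPM. It stood at 14.63, 20.56 and 16.78 TPM in WT mice 1, 2 and 3 and at 11.35, 15.29 and 17.55 TPM in Prmt9 KO mice 1, 2 and 3. It was the one gene of the 10 for which Prmt9 KO mouse 3 was above WT mouse 3, and the edgeR log2 fold change was -0.31 with a standard error of 0.16.

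Arc (ENSMUSG00000022602, chr15:74669083-74672570, reverse strand) encodes a postsynaptic protein that promotes endocytosis of AMPA receptors, and its RNA is carried into dendrites. It stood at 35.87, 180.51 and 165.87 TPM in WT mice 1, 2 and 3 and at 33.31, 93.15 and 122.83 TPM in Prmt9 KO mice 1, 2 and 3. Arc had the widest range of the 10 genes, 5.42-fold between the highest and the lowest mouse, with WT mice 2 and 3 above every Prmt9 KO mouse and WT mouse 1 between Prmt9 KO mice 1 and 2. Prmt9 KO reached 65.2% of the WT mean (exact two-sided permutation test, p = 0.4, n = 3 each). For Arc, edgeR estimated a log2 difference of -0.64 (standard error 0.61), and -0.58 with a standard error of 0.13 under the block (unadjusted p = 0.00575, adjusted p = 0.79). Without the block and with 1 mouse left out, the Arc estimate ran from -0.28 (without Prmt9 KO mouse 1) to -1.03 (without WT mouse 1). In pairs of the same number, Prmt9 KO had 92.9%, 51.6% and 74.1% of the TPM of WT.

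Npas4 (ENSMUSG00000045903, chr19:4984355-4990316, reverse strand), a basic helix-loop-helix PAS factor that responds to calcium entry and little else, stood at 5.64, 10.15 and 10.4 TPM in WT mice 1, 2 and 3. In Prmt9 KO mice 1, 2 and 3 it stood at 6.98, 7.52 and 9.49 TPM. WT mouse 1 was below all Prmt9 KO mice in TPM, and the other WT mice were above them. Its log2 fold change in edgeR was -0.21 with a standard error of 0.17. In CPM, Npas4 in Prmt9 KO mouse 1 was at 99.8% of WT mouse 1. Nr4a1 (ENSMUSG00000023034, chr15:101254269-101274795, forward strand), an orphan nuclear receptor also called Nur77, showed the same arrangement in TPM. It stood at 35.07, 78.24 and 75.93 TPM in WT mice 1, 2 and 3 and at 43.61, 52.54 and 68.02 TPM in Prmt9 KO mice 1, 2 and 3. Its edgeR log2 fold change was -0.29 with a standard error of 0.22, and -0.27 with a standard error of 0.1 under the block (unadjusted p = 0.0466, adjusted p = 0.79). In CPM, Nr4a1 in Prmt9 KO mouse 1 was at 97.2% of WT mouse 1.

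**Figure D2:**
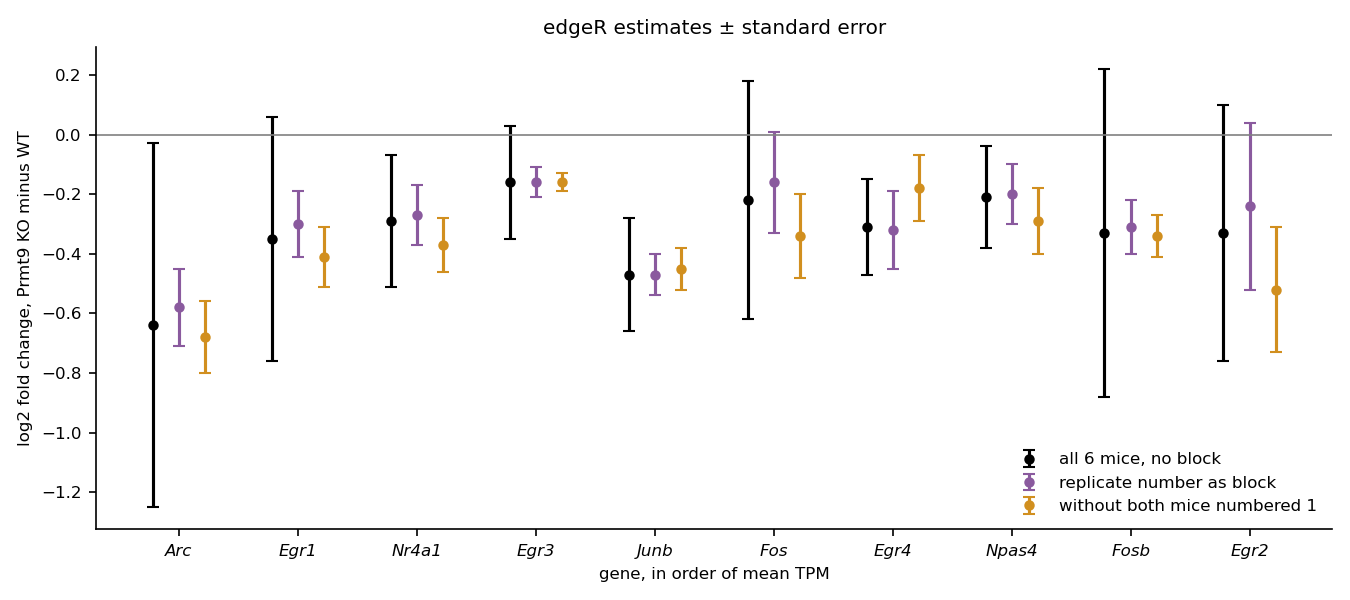
edgeR log2 fold change (Prmt9 KO minus WT, y axis) of each gene, with bars of 1 standard error, for all 6 mice without a block (black), with the replicate number as a block (purple) and without both mice numbered 1 (orange). Every estimate is below 0, and the bars are widest without the block, from 0.16 for Egr4 to 0.61 for Arc.

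Both mice numbered 1 were below the other 4 mice in TPM for all 10 genes, an order that 45.8% of all genes had. In CPM this held for 7 of the 10 genes, beside 31.5% of all genes, and Junb, Egr4 and Npas4 were the exceptions. Relative to the mean of mice 2 and 3 of the same genotype, the median CPM of the 10 genes was 51.0% in WT mouse 1 and 71.8% in Prmt9 KO mouse 1, where the median over all genes was 98.3% and 100%. Of all 20315 genes, 12.1% in WT and 18.7% in Prmt9 KO lay below the median of the 10 genes. Arc had 26.8% and 34.2% of that mean in WT mouse 1 and Prmt9 KO mouse 1, and Fosb had 33.0% and 35.3%. Egr4 was the gene least touched in WT, at 101% of the mean. Some marker levels moved with the same mice and others did not. The summed TPM of 7 excitatory neuron markers was 1713, 2914 and 2834 in WT mice 1, 2 and 3 and 1816, 2857 and 2733 in Prmt9 KO mice 1, 2 and 3. The sum over 7 oligodendrocyte lineage markers was 2007, 10340 and 8999 in WT and 1093, 7221 and 10050 in Prmt9 KO. The sum over 4 choroid plexus markers was the highest of WT in mouse 1 (7254, against 606.2 and 1994) and the lowest of Prmt9 KO in mouse 1 (863.2, against 2320 and 3328). CA3 pyramidal cell markers summed to 105.5, 113.8 and 112.8 TPM in WT mice 1, 2 and 3 and to 109.5, 113.4 and 102.2 TPM in Prmt9 KO mice 1, 2 and 3. The part of these cell types in the levels of the 10 genes was not tested.

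**Figure D3:**
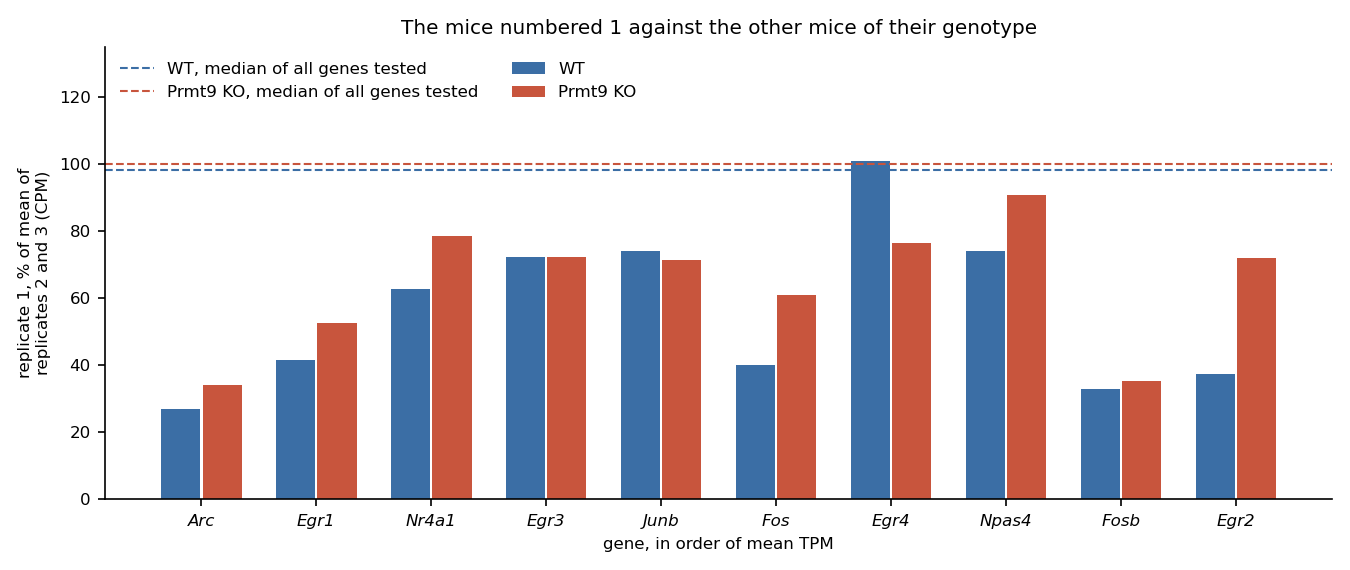
CPM of mouse 1 as a percent of the mean of mice 2 and 3 of the same genotype (y axis, from 0), for each gene in WT and Prmt9 KO, with dashed lines at the median over all genes tested (98.3% and 100%). The bars of Arc (26.8% and 34.2%) and Fosb (33.0% and 35.3%) are among the lowest, and the Egr4 bar of WT stands at 101%.

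Among the mice numbered 2 and 3, both Prmt9 KO mice were below both WT mice in TPM for 9 of the 10 genes, the exception being Egr4. This arrangement held for 24.7% of all genes and the opposite one for 23.6%. In CPM it held for the same 9 genes, beside 25.5% of all genes. With all 6 mice, the groups stood apart in TPM for 0 of the 10 genes, beside 6.67% of all genes (1.38% with Prmt9 KO lower and 5.28% with it higher), and in CPM for 0 of the 10, beside 7.01%. A fit without both mice numbered 1 gave an edgeR median log2 fold change of -0.35 for the 10 genes and an unadjusted p below 0.05 for 7 of them, beside 16.4% of all genes and 8.6% as lower. It called 0 of the 10 genes and 0.00488% of all genes, and 50.1% of all genes had an estimate below 0. Without WT mouse 1 alone, 2 of the 10 genes had an unadjusted p below 0.05, beside 3.35% of all genes and 1.07% as lower, and all 10 were below 0 beside 46.1%. All 3 Prmt9 KO mice were then below WT mice 2 and 3 in TPM for 9 of the 10 genes, beside 18.8% of all genes (13.2% had the opposite arrangement). Without both mice numbered 1, the lowest adjusted p was 0.108, for Junb, in edgeR with Benjamini-Hochberg adjustment. Summed markers of several cell types also stood apart between genotypes in these 4 mice, though single markers did not all follow their sum. This arrangement is common in these mice, as 24.7% of all genes had Prmt9 KO lower and 23.6% had it higher. The summed TPM of CA1 pyramidal cell markers was 204.3 and 199.3 in WT against 187.6 and 192.3 in Prmt9 KO, and that of microglia markers 178.7 and 170.8 against 167.4 and 164.6. Of the CA1 markers, Fibcd1 alone stood apart, and Wfs1 and Man1a overlapped. The microglia marker Tmem119 went the other way (21.14 and 21.57 in WT, 22.06 and 23.09 in Prmt9 KO). Csf1r overlapped, and the other microglia markers followed the sum. Astrocyte markers summed to 879.4 and 887.7 TPM in WT against 917.7 and 931.1 TPM in Prmt9 KO, and choroid plexus markers to 606.2 and 1994 against 2320 and 3328. The astrocyte marker Aqp4 went against its sum (72.39 and 68.69 in WT, 60.73 and 54.16 in Prmt9 KO). Aldh1l1 overlapped, and the other astrocyte markers followed the sum. Mural cell markers summed to 78.41 and 85.71 TPM in WT against 68.54 and 77.16 TPM in Prmt9 KO, with Acta2 and Myh11 overlapping. The excitatory neuron markers overlapped, at 2914 and 2834 TPM in WT against 2857 and 2733 TPM in Prmt9 KO. The sums for dentate granule cells, CA3 pyramidal cells, inhibitory neurons, the oligodendrocyte lineage and endothelial cells overlapped as well. The hemoglobin markers of blood summed to 4265 and 6316 TPM in WT and to 3265 and 1925 TPM in Prmt9 KO, and the part of these cell types in the levels of the 10 genes was not tested.

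Because Prmt9 acts on a splicing factor, the annotated transcripts of the 10 genes were compared as shares of the TPM of their gene. The files list 36 transcripts of these genes, 4 of them at 0 TPM in all mice, and 9 of the 10 genes have more than 1. Of 22 transcripts with a mean share of at least 5%, 1 had shares that stood apart between genotypes, beside 9.15% of 47175 such transcripts of all genes. In edgeR's diffSpliceDGE test of transcript usage, 0 of the 8 genes with at least 2 testable transcripts were called, beside 0.17% of 13560 genes, and the lowest unadjusted p was 0.478, for Egr2 (1.73% of all genes were below 0.05). With the block it also called 0 of the 8, beside 0.0959%, and the lowest unadjusted p was 0.413, for Npas4 (2.48% of all genes were below 0.05).

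The transcript that stood apart was ENSMUST00000237881 of Npas4, which is annotated as a target of nonsense-mediated decay. It lacks exon 5 of the main transcript, ENSMUST00000056129, the coding exon of 110 bases at chr19:4987778-4987887, a length that leaves 2 bases after division into codons and so shifts the frame. The exon is shown because its inclusion separates the coding form of 802 codons from the form with 236 codons (GRCm38, reverse strand, from the GENCODE M21 transcript).
Npas4 exon 5: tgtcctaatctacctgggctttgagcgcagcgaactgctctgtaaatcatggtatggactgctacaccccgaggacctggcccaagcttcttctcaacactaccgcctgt
The transcript without exon 5 held 10.6%, 23.4% and 23.2% of the Npas4 TPM in WT mice 1, 2 and 3 and 26.1%, 27.9% and 24.3% in Prmt9 KO mice 1, 2 and 3. The groups did not overlap, and WT mouse 1 was far from the other WT mice. The means were 19.1% ± 7.32 and 26.1% ± 1.8 (SD, n = 3 each, exact two-sided permutation test, p = 0.1, the smallest p that 3 against 3 allows). The difference of 7.04 percentage points was 2.81 without WT mouse 1. As a share of these 2 transcripts alone, the values were 22.5% ± 9.67 and 28.6% ± 2.22 (SD, n = 3 each, exact two-sided permutation test, p = 0.4), and the groups overlapped.

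Fosb gives ΔFosB when 140 bases inside its exon 4 are spliced out as an intron (chr7:19305007-19305146). The removal leaves a remainder of 2 bases, and the annotated reading frame ends at 237 codons in ENSMUST00000208446 instead of 338 in ENSMUST00000003640. The segment is shown with 10 bases on either side because the split between the 2 proteins turns on it. Capitals mark GT at its first and AG at its last bases, as in an intron (GRCm38, reverse strand, from the GENCODE M21 transcript).
Fosb segment: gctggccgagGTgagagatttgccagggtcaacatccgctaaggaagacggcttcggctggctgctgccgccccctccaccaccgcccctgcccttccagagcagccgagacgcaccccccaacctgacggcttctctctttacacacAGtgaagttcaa
The ΔFosB transcripts, ENSMUST00000208446 and ENSMUST00000208505, held 23.4%, 28.3% and 22.5% of the TPM of the coding Fosb transcripts in WT mice 1, 2 and 3 and 5.68%, 23.1% and 15.3% in Prmt9 KO mice 1, 2 and 3. Prmt9 KO mouse 2 lay within the WT range and the others below it. The means were 24.7% ± 3.11 and 14.7% ± 8.74 (SD, n = 3 each, exact two-sided permutation test, p = 0.2). By estimated counts the shares were 8.22% ± 1.51 and 4.69% ± 3.33 (SD, n = 3 each, exact two-sided permutation test, p = 0.3). The ΔFosB transcripts had only 47, 258 and 175 estimated counts in WT mice 1, 2 and 3. In Prmt9 KO mice 1, 2 and 3 they had 9.45, 184 and 97.2, so counting error weighs on these shares, most of all in Prmt9 KO mouse 1. In the TPM of all Fosb transcripts, the share of ENSMUST00000208446 differed by -9.7 percentage points (Prmt9 KO minus WT), and by -5.53 without Prmt9 KO mouse 1. ENSMUST00000208446 is annotated without most of the last exon, so the level of its share depends on the length used.

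Nr4a1 has 2 coding transcripts with the same 601 codons and start sites 12577 bases apart. ENSMUST00000228985, from the far upstream site, stood at 13.17, 14.49 and 15.59 TPM in WT mice 1, 2 and 3 and at 17.79, 14.47 and 16.82 TPM in Prmt9 KO mice 1, 2 and 3, a range of 1.35-fold. ENSMUST00000023779, from the near site with the promoter shown above, stood at 17.56, 49.16 and 45.88 TPM in WT and at 16.42, 29.44 and 35.52 TPM in Prmt9 KO, a range of 2.99-fold. The low values of the mice numbered 1, and the lower values of Prmt9 KO mice 2 and 3, were seen in the near-start transcript. In the far-start transcript, WT mouse 1 was the lowest of the 6 mice too, by a small margin, but Prmt9 KO mouse 1 was the highest. There, Prmt9 KO mouse 3 was above both WT mice 2 and 3, and Prmt9 KO mouse 2 (14.47 TPM) was just below them. Neither transcript differed between genotypes in TPM beyond the spread between mice (exact two-sided permutation test, p = 0.4 for the near-start and p = 0.3 for the far-start transcript, n = 3 each).

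The Arc transcripts ENSMUST00000023268 and ENSMUST00000110009 differ by a 3-base shift of a splice acceptor after the coding region (chr15:74670317-74670319), and both encode 396 codons. The shorter exon form, ENSMUST00000110009, held 27.9% ± 6.28 of the Arc TPM in WT, against 30.1% ± 1.3 of it for Prmt9 KO (SD, n = 3 each, exact two-sided permutation test, p = 1.0). Without WT mouse 1 the difference changed its sign, from 2.15 to -1.47 percentage points. WT mouse 1 was the low value, at 20.7%, and the other 5 mice lay between 28.6% and 31.7%. For Egr1, ENSMUST00000165033 held 94.3% ± 0.41 and 95.0% ± 0.398 of the Egr1 TPM (SD, n = 3 each, exact two-sided permutation test, p = 0.2). The retained-intron transcript ENSMUST00000223747 held 20.6% ± 7.87 and 17.3% ± 1.53 of the Egr3 TPM (SD, n = 3 each, exact two-sided permutation test, p = 0.8), with 29.5% in WT mouse 1 and 14.6% to 18.9% in the other 5 mice. That difference was -3.29 percentage points, and 1.17 without WT mouse 1. Egr4 has 1 annotated transcript, and in Junb a noncoding transcript (ENSMUST00000209372) had 0.0384% of the TPM in WT mouse 2 and none in the other mice.

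**Figure D4:**
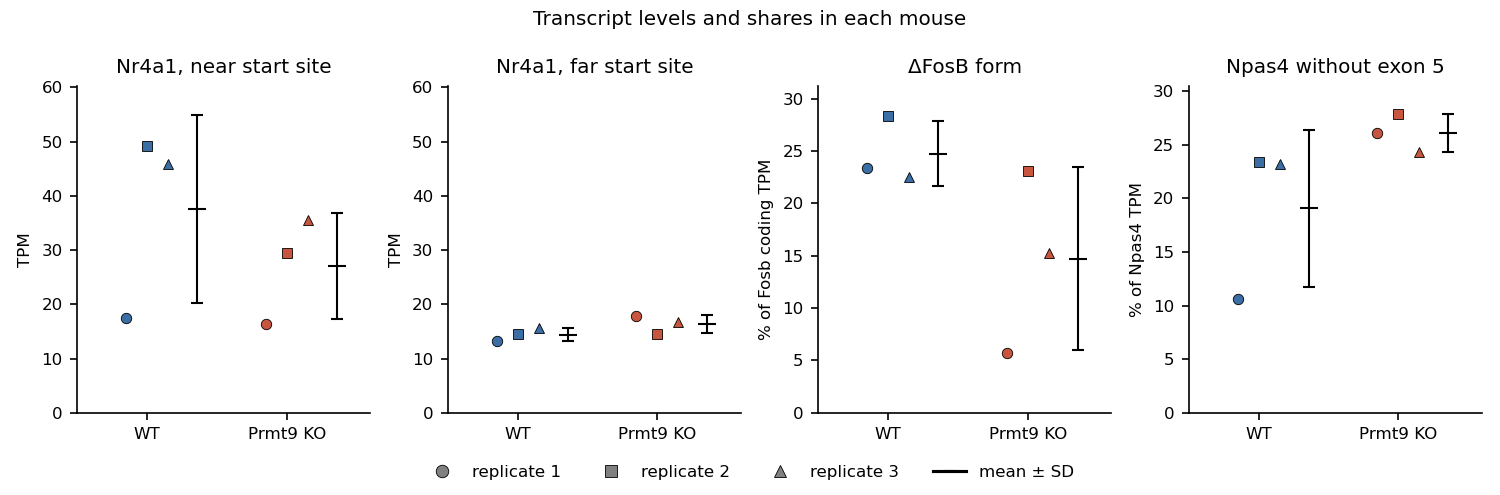
TPM of the near-start and the far-start Nr4a1 transcripts on 1 scale, the ΔFosB share of the coding Fosb TPM, and the share of the Npas4 transcript without exon 5, in 3 WT and 3 Prmt9 KO mice with mean ± SD. The far-start transcript stays between 13.17 and 17.79 TPM while the near-start one runs from 16.42 to 49.16 TPM.

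The other genes of the activity response were read from 3 lists. The first held 58 further immediate early and activity-regulated genes. edgeR called 0 of them and gave an unadjusted p below 0.05 for 1, Ccn2, beside 1.24% of all genes. Their median log2 fold change was -0.06 beside -0.01 over all genes, and 42 of the 58 had an estimate below 0, as did 53.1% of all genes. Ccn2, a secreted matricellular protein induced by SRF and YAP, was the highest of the list. It stood at 5.59, 10.73 and 13.23 TPM in WT mice 1, 2 and 3 and at 12.15, 18.11 and 23.46 TPM in Prmt9 KO mice 1, 2 and 3, a log2 difference of 0.83 with a standard error of 0.3 (edgeR, unadjusted p = 0.0325, adjusted p = 1.0). The lowest was Rasl11a, a small GTPase of the RAS family, at -0.42 with a standard error of 0.37. With the replicate block, 10 of the 58 genes were lower at an unadjusted p below 0.05 (Jun, Nr4a3, Ier5, Btg2, Klf10, Gadd45b, Bdnf, Nptx1, Scg2 and Nfil3), beside 3.17% of all genes, and 2 were higher (Ccn2 and Cdkn1a). In either direction, 5.75% of all genes passed. Among mice 2 and 3, both Prmt9 KO mice were below both WT mice for 30 of the 58 genes and above them for 6, beside 24.7% and 23.6% of all genes. None of them was called with the block, and those named with the block were singled out after their values were seen.

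The second list held 29 regulators that carry the signal to these promoters, such as SRF, CREB1, MEF2 proteins, MAP kinases and calcineurin subunits. None had an unadjusted p below 0.05 in edgeR without the block, beside 1.24% of all genes, and the median was -0.03. The lowest was Srf at -0.15 and the highest Camk4, a calcium/calmodulin kinase that phosphorylates CREB, at 0.09. With the block, Srf and Ppp3ca, the catalytic subunit of calcineurin, were lower at an unadjusted p below 0.05, beside 3.17% of all genes, and neither was called (adjusted p = 0.79 for both in edgeR). The third list held 12 partners and co-regulators of the proteins encoded by the 10 genes. None had an unadjusted p below 0.05 in edgeR without the block, beside 1.24% of all genes, and the median was -0.04. The lowest was Batf at -0.77 with at most 0.69 TPM in any mouse, and the highest was Arnt2, the dimer partner of NPAS4, at 0.14. With the block, 1 was lower at an unadjusted p below 0.05, beside 3.17% of all genes. It was Jun, which is also on the first list and was not called (adjusted p = 0.79 in edgeR).

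**Figure D5:**
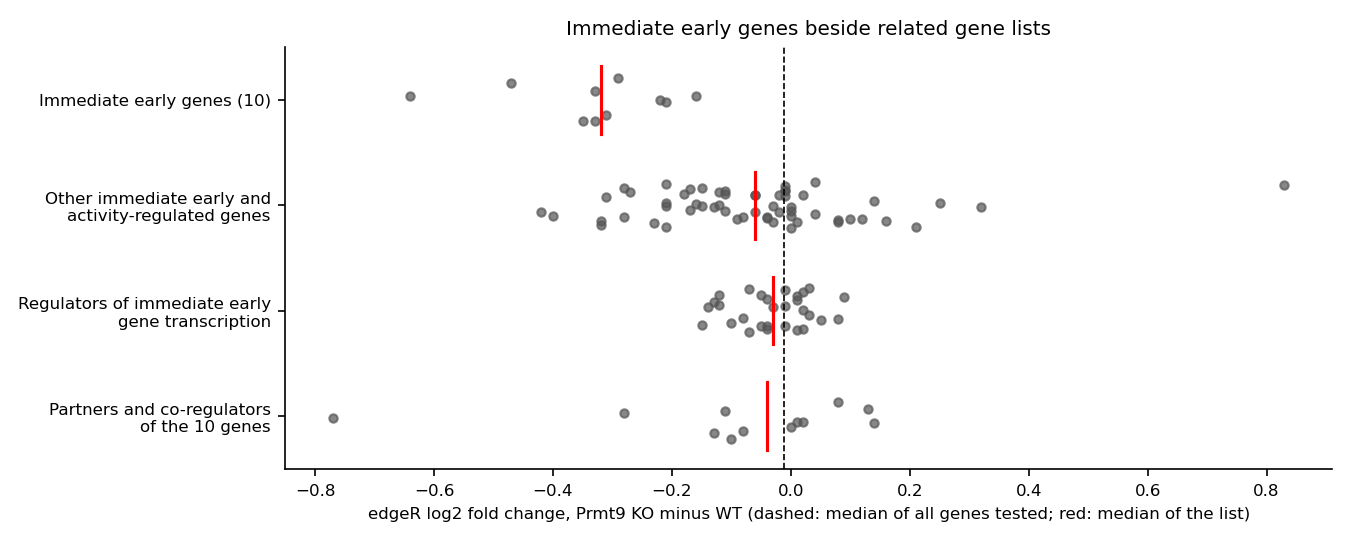
edgeR log2 fold change (Prmt9 KO minus WT, x axis) of each of the 10 immediate early genes and of the genes of the 3 related lists, with the median of each list in red and the median of all genes tested as a dashed line. The 10 genes lie between -0.64 and -0.16, and the 58, 29 and 12 genes of the lists lie on both sides of 0 with medians of -0.06, -0.03 and -0.04.

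The genes whose profile over the 6 mice was most like the mean profile of the 10 genes were Efhd1, Aatk, Cdiptos, Tjap1 and the pseudogene Gm48111. Likeness was the root mean square distance of centred log2(TPM + 0.1) values, over 15015 genes with a mean of at least 1 TPM. The distances were 0.02, 0.04, 0.08, 0.08 and 0.08, beside a median of 0.47 over these genes. Among the 10 genes themselves, Egr1 was nearest to their mean profile at 0.13 and Arc farthest at 0.45, with Fosb at 0.37 and Egr4 at 0.35. Efhd1, for example, stood at 5.57, 15.02 and 13.65 TPM in WT mice 1, 2 and 3 and at 6.09, 10.03 and 12.44 TPM in Prmt9 KO mice 1, 2 and 3, the low mice 1 and the lower Prmt9 KO mice 2 and 3 that were seen for the 10 genes. As the points share 6 libraries, this is a description without a test.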

How the data were processed

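RNA-seq libraries were made with a stranded kit from polyadenylated hippocampal RNA. The authors quantified transcripts with kallisto (version 0.46.0 in the submitters' notes, GRCm38), and deposited expected counts (estimated counts) and TPM per transcript and TPM summed per gene. Of 118783 transcripts, 116622 had an identifier in GENCODE M21, and the other 2161 were not used. Estimated counts were summed per gene, rounded and fitted with edgeR 4.0.16 (TMM, filterByExpr, quasi-likelihood test, Benjamini-Hochberg adjustment over 20315 genes), which was tested on simulated data. DESeq2 1.42.0 and limma 3.58.1 with pseudocounts of 1 and 0.1 were alternatives. Single values and shares were compared with exact permutation tests in SciPy 1.17.1. Counting error is small for most gene sums at this depth, and intervals for it were not computed. It is larger for transcripts with few counts, such as the ΔFosB form, with 9.45 estimated counts in Prmt9 KO mouse 1. Nothing in the labels says how the libraries were batched, and p-values measure the spread between these mice. Deviations from genotype means correlated at 0.553, 0.415 and 0.383 between mice of the numbers 1, 2 and 3, each above 0.1, and the numbers were taken as pairs on this basis alone. WT mouse 2 with Prmt9 KO mouse 3 (0.417) and WT mouse 3 with Prmt9 KO mouse 2 (0.394) correlated as well, so numbers 2 and 3 could not be told apart. The 10 genes and the lists were chosen with earlier results of these data known. Named genes were all 10, Prmt9, and from each list those with an unadjusted p below 0.05 and the lowest and highest log2 fold change.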

Additional observations from a re-analysis of the deposited data

How the results depend on the processing

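The log2 fold change of the 10 genes kept its sign in 90 of 90 values over 9 other settings, and with 1 mouse left out 1 of 60 values was reversed, that of Fosb without Prmt9 KO mouse 1 (0.02), whose values ran from -0.69 (without WT mouse 1) to 0.02. The median over the 10 genes lay between -0.564 (without WT mouse 1) and -0.131 (without WT mouse 2) with 1 mouse left out. The count of the 10 genes with an unadjusted p below 0.05, 1 in edgeR, was 6 with the replicate block, 7 with a term for the mice numbered 1, 7 without both of these mice, 0 with size factors in place of TMM, 0 in each of 3 limma fits on TPM, and between 0 and 2 with 1 mouse left out (2 without WT mouse 1). DESeq2 and no filter on low counts gave 1. The groups stood apart in TPM for 9 genes without both mice numbered 1 (all with Prmt9 KO lower, beside 24.7% of all genes), and for 0 to 9 genes with 1 mouse left out (9 without WT mouse 1, all with Prmt9 KO lower, beside 18.8% of all genes). Over all genes, edgeR called 0 (252 at an unadjusted p below 0.05), DESeq2 4 (Prmt9, Spx, Gm3373 and Zc3h11a, of which the last 3 were named after their values were seen), and edgeR 1, Prmt9, with the term for the mice numbered 1 and 1, Prmt9, without them. Of 169 differences in transcript share under other settings, 2 moved by more than the pooled SD, those of ENSMUST00000208446 of Fosb (-3.2 percentage points) and ENSMUST00000230814 of Nr4a1 (0.31), both by estimated counts. The cause of these changes was not tested. With 3 mice per genotype, the standard errors without the block were widest for Arc (0.61) and Fosb (0.55).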
